A study of Mus musculus with 5 samples.

Results

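A list of 10 trophoblast and keratin genes was followed across the 5 libraries of the series: the transcription factors Tfap2c, Tead4, Cdx2, Eomes, Elf5, Gata3, Ascl2 and Hand1, and the simple keratins Krt8 and Krt18. They are 10 of the 21930 genes measured, chosen by name. Their 14 RefSeq transcripts were summed per gene. Each library came from mouse E14 embryonic stem cells, labelled as strain C57BL/6, and each group is 1 library: normal cells cultured with leukemia inhibitory factor (LIF), normal cells deprived of LIF for 24 hours before it was added back, and cells labelled as overexpressing Hk2 and Pkm2 (hexokinase 2 and the M2 pyruvate kinase) in the same 2 cultures and after 40 days without LIF. The 24 hour libraries are called withdrawal below, and their differences from the libraries with LIF do not separate loss of LIF from its return. The sources used here do not give the promoter behind the introduced genes or whether the cells are 1 clone. With 1 library per group, differences between libraries are given as values without a replicate check.

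Trophoblast is the first lineage to leave the mouse embryo and builds the fetal part of the placenta. Tead4, the DNA-binding partner of the coactivators Yap1 and Wwtr1, acts at the top of its program and is needed for Cdx2 in the outer cells of the embryo. Cdx2, Eomes, Elf5, Gata3 and the AP-2 factor Tfap2c hold the stem cell state of the lineage, while the helix-loop-helix factors Ascl2 and Hand1 act in its spongiotrophoblast and giant cell branches. In embryonic stem cells this program is held down by Pou5f1, with which Cdx2 represses reciprocally. Krt8, a type II keratin, and Krt18, a type I keratin, pair into the filaments of simple epithelia, among them trophectoderm and extraembryonic endoderm.

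The levels are FPKM, the number of fragments of a transcript divided by its length and by the mapped fragments of the library, so that genes may be compared per length. Between 10151 and 11114 transcripts reached 1 FPKM in a library, and the spacing of low values gave an estimated depth of 36500000 to 48250000 fragments. Pou5f1, which marks pluripotent cells, stood between 807 and 1092 FPKM, and all 8 pluripotency markers examined were above 1 FPKM in every library. The trophoblast markers Tpbpa and Prl3d1 were listed at 0 in all 5 libraries. Hk2 stood at 76.2 FPKM in normal and 98.6 FPKM in Hk2/Pkm2-labelled cells with LIF, and at 49.7 and 59.0 FPKM after the 24 hour withdrawal. Pkm stood at 510 and 567 FPKM, then at 611 and 564 FPKM, so these cells are called by their label.

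Krt8, Krt18 and Ascl2 were at or above 1 FPKM in all 5 libraries. Tfap2c, Tead4 and Eomes passed that level in some libraries, and their means over the 5 libraries were 4.32, 3.29 and 1.48 FPKM. Cdx2, Elf5, Gata3 and Hand1 stayed under 1 FPKM in every library. Thus 6 of the 10 members reached the mean of 1 FPKM that 9590 genes of the series reached, and Eomes did so largely through 1 library. Tfap2c and Tead4 were highest in normal cells with LIF, and 5 members, among them both keratins, were highest at 40 days without LIF.

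**Figure D1:**
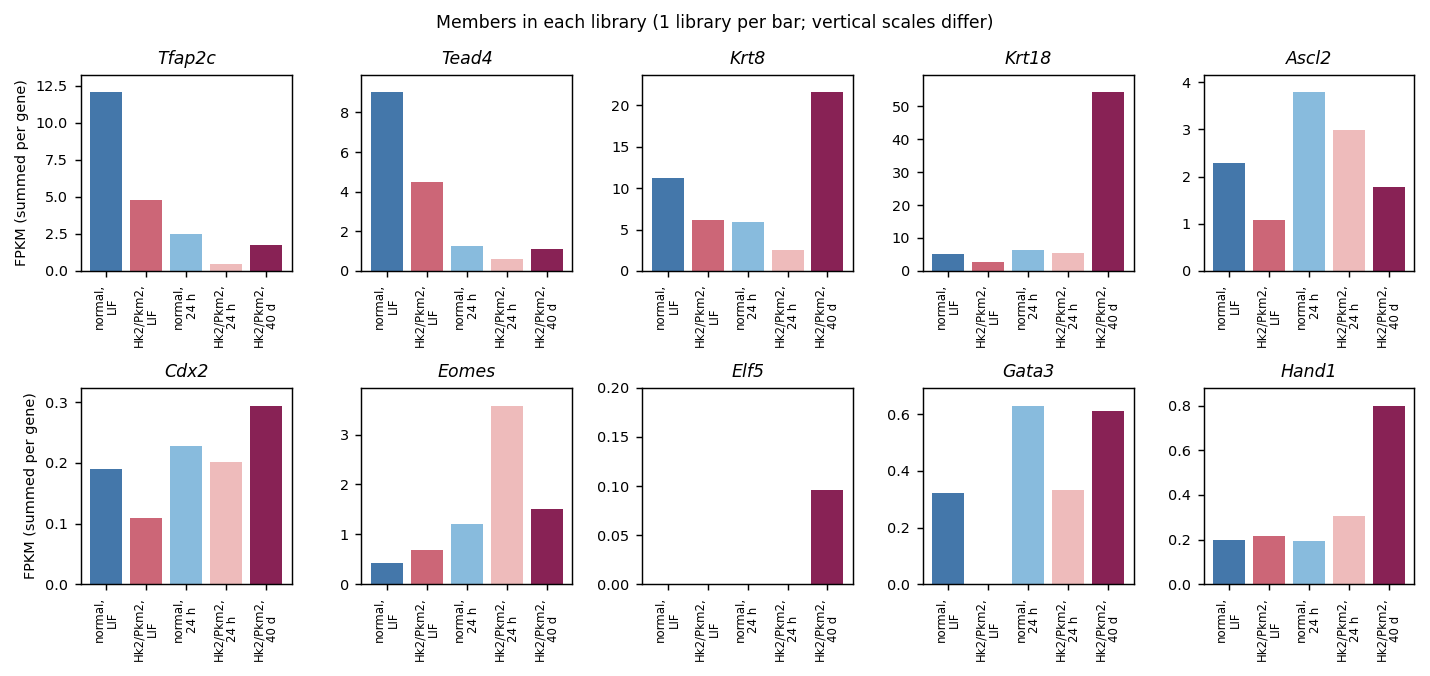
Each panel shows 1 gene and each bar 1 library, with FPKM summed over the gene's transcripts on a vertical axis that starts at 0 and differs between panels. Tfap2c and Tead4 are highest in normal cells with LIF (12.1 and 9.01 FPKM), Eomes after withdrawal in Hk2/Pkm2-labelled cells (3.58 FPKM), and Krt18 at 40 days (54.2 FPKM).

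The promoter windows of both keratins are shown because these neighbouring genes differ in their course over the cultures. The windows run from 250 bases before to 50 bases after the start site in the RefSeq table of build GRCm38.p6, chr15:102004293-102004592 on the minus strand for Krt8 and chr15:102027966-102028265 on the plus strand for Krt18. Capitals mark a match to the AP-2 motif GCCNNNGGC, the kind of site that Tfap2c recognises.
Krt8: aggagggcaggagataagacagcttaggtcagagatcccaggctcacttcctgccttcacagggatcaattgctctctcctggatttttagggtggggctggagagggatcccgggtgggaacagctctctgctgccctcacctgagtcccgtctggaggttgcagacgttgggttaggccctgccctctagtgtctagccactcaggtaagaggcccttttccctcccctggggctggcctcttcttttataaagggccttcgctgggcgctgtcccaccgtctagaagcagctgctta
Krt18: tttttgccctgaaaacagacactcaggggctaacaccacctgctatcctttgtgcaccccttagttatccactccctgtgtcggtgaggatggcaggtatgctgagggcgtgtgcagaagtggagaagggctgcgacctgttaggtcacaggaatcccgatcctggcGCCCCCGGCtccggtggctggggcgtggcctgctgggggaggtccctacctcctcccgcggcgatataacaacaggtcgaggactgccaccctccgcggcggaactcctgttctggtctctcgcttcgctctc
The match in Krt18 starts 83 bases before its start site, and Krt8 has none. Neither window held the TEAD motif CATTCC, the STAT motif TTCNNNGAA or the AP-1 motif TGANTCA on either strand. No 2 motif matches overlapped. Of all 32851 windows of this length in the table, 16.6% held the AP-2 motif, 14.7% the TEAD motif, 8.3% the STAT motif and 7.81% the AP-1 motif. Over the 7 members with a window (Krt8, Krt18, Ascl2, Cdx2, Eomes, Elf5 and Gata3), the AP-2 motif occurred in 3 (Krt18, Cdx2 and Gata3) and the TEAD motif in 1 (Elf5). The Krt8 window was 58.0% G and C and the Krt18 window 61.3%, against a median of 52.7% over all windows. These matches describe letters and show no binding.

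Tfap2c encodes AP-2 gamma, a factor of trophoblast stem cells and germ cells. It stood at 12.1 FPKM in normal and 4.79 FPKM in Hk2/Pkm2-labelled cells with LIF, at 2.47 and 0.491 FPKM after the 24 hour withdrawal, and at 1.76 FPKM at 40 days. Normal cells with LIF were the highest, and the Hk2/Pkm2-labelled library was the lower one in both cultures. The 24 hour library lay below the library with LIF in both cell types. On the log2(FPKM + 1) scale the ratio of Hk2/Pkm2-labelled to normal cells was -1.17 with LIF and -1.22 after withdrawal, and that of withdrawal to LIF was -1.91 in normal and -1.96 in labelled cells. In the fit of cell type and culture to 4 libraries, limma with Benjamini-Hochberg adjustment over 9590 genes gave -1.19 ± 0.16 for cell type (SE, adjusted p = 0.512) and -1.94 ± 0.16 for culture (adjusted p = 0.324). Tfap2c maps to the plus strand of chromosome 2, positions 172375093 to 172384122 in mm9.

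Tead4 had a profile of the same shape. It stood at 9.01 FPKM in normal and 4.48 FPKM in labelled cells with LIF, at 1.26 and 0.590 FPKM after withdrawal, and at 1.13 FPKM at 40 days. Both libraries with LIF were above all 3 others, as for Tfap2c. The log2 ratio of withdrawal to LIF was -2.15 in normal and -1.78 in labelled cells, and that of labelled to normal cells was -0.87 with LIF and -0.50 after withdrawal. limma gave -1.97 ± 0.20 for culture (SE, adjusted p = 0.324) and -0.69 ± 0.20 for cell type (adjusted p = 0.520). Tead4 maps to the minus strand of chromosome 6, positions 128174306 to 128250841 in mm9.

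The split of these genes between their transcripts was less even than their sums. For Tead4, NM_011567 stood at 5.40 and 4.48 FPKM in normal and labelled cells with LIF and was listed at 0 in the 3 other libraries. The other transcript, NM_001080979, was at 3.61 FPKM in normal and listed at 0 in labelled cells with LIF. After withdrawal it stood at 1.26 and 0.590 FPKM, and at 1.13 FPKM at 40 days, so it carried the whole gene there. An exact 0 may also stand for an estimate that failed, so no switch between transcripts is read from it. For Tfap2c, both transcripts were above 0 in 4 libraries, with NM_001159696 making up 40.4% to 60.5% of the gene, and NM_001159696 was listed at 0 in labelled cells after withdrawal. The other Tfap2c transcript, NM_009335, had the higher mean over the 5 libraries but was not the larger part in each. It made up 43.4% of the gene in labelled cells with LIF, 39.5% in normal cells after withdrawal and 48.5% at 40 days. With NM_009335 alone, the log2 ratio of labelled to normal cells after withdrawal was -0.40 in place of -1.22. That of 40 days to labelled cells with LIF was -0.73 in place of -1.07, so that neither was 2-fold. For Tead4, NM_011567 had the higher mean. With it alone, the ratio of labelled to normal cells with LIF was -0.22 in place of -0.87, and after withdrawal it was listed at 0 in both cell types. For Eomes, NM_010136 made up at least 71.6% of the gene in each library. That transcript alone gave a log2 ratio of labelled to normal cells with LIF of 0.07 in place of 0.25. After withdrawal the ratio stayed at 1.05.

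**Figure D2:**
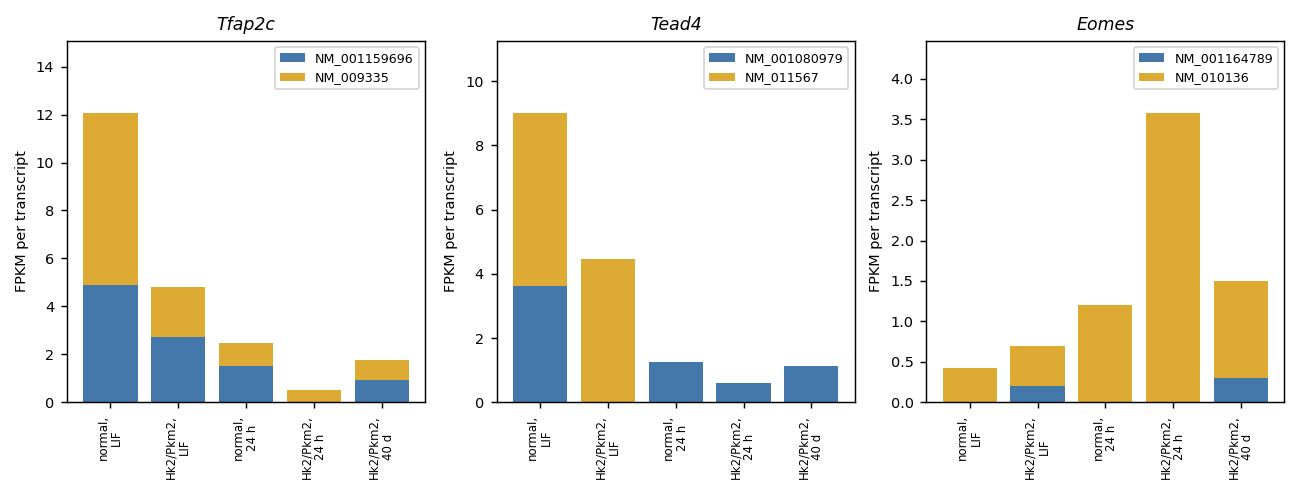
Stacked bars give the FPKM of each RefSeq transcript of Tfap2c, Tead4 and Eomes in each library (1 library per bar). The Tead4 transcript NM_011567 is present in both libraries with LIF (5.40 and 4.48 FPKM) and listed at 0 in the 3 others.

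Genes closest to these 2 in pattern were found by the Euclidean distance between log2(FPKM + 1) profiles over the 5 libraries, each centred on its mean. The search covered genes above 0 in every library with a mean of at least 1 FPKM. The 5 closest to Tfap2c were Susd2, Tead4, Cltb, Mras and Gli1, at distances of 0.52 to 0.71 where the median gene lay at 2.42. The 5 closest to Tead4 were Cltb, Susd2, Erf, Mras and Tfap2c, at 0.23 to 0.56 where the median gene lay at 2.28. Cltb, a clathrin light chain, stood at 66.9, 36.5, 13.5, 8.71 and 11.1 FPKM in the order normal with LIF, labelled with LIF, normal after withdrawal, labelled after withdrawal and labelled at 40 days. The pluripotency genes Nanog (150, 183, 59.3, 54.5 and 29.6 FPKM in that order) and Zfp42 (266, 278, 118, 128 and 40.9 FPKM) were also lower in the 3 libraries without continuous LIF, but were not lower in labelled cells with LIF.

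Of 12 Hippo and TEAD genes listed, 9 had a usable value, and Tead1 was not among them. Tead2 stood at 25.9 and 27.3 FPKM with LIF, 34.4 and 45.0 FPKM after withdrawal and 58.6 FPKM at 40 days, and was above Tead4 in every library. Yap1, the coactivator, ranged from 24.7 FPKM in normal cells with LIF to 50.7 FPKM at 40 days. Wwtr1, the other coactivator, stood at 10.5 and 11.9 FPKM with LIF, 6.90 and 5.23 FPKM after withdrawal and 15.02 FPKM at 40 days, so that it was lower after withdrawal in both cell types, as Tead4 was, but highest at 40 days. Tead3 was between 1.005 and 4.82 FPKM. Nf2, an upstream regulator of the pathway, was listed at 0 in normal cells after withdrawal and stood at 11.1 to 16.8 FPKM elsewhere. At 40 days against labelled cells with LIF, Tead2 and Tead3 were at least 2-fold higher and none of the 9 was lower, where 14% of all 9590 genes tested were higher and 8.31% lower.

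The stem cell factors Cdx2, Elf5 and Gata3 were under 1 FPKM throughout, with Cdx2 and Elf5 near the floor. Cdx2 stood at 0.189 and 0.109 FPKM in normal and labelled cells with LIF, 0.227 and 0.202 FPKM after withdrawal and 0.294 FPKM at 40 days. With the estimated depth this is about 10 to 24 fragments per library, with Poisson 95% intervals of 4.8 to 18.4 fragments in its lowest and 15.4 to 35.7 in its highest library. These intervals overlap, cover counting error only and rest on the estimated depth. Elf5 was listed at 0 in 4 libraries and stood at 0.096 FPKM at 40 days. With LIF, Gata3 was at 0.322 FPKM in normal cells and listed at 0 in labelled cells, and stood at 0.630 and 0.331 FPKM after withdrawal and 0.610 FPKM at 40 days. Its values above 0 are about 42 fragments in normal cells with LIF, 78 and 41 after withdrawal and 72 at 40 days. The Poisson 95% intervals of normal cells with LIF (30.3 to 56.8) and after withdrawal (61.7 to 97.3) did not overlap. They too cover counting error only and rest on the estimated depth. The annotation places 9230102O04Rik on the same strand within Gata3 and 2 genes on the opposite strand, and the reads were not separated by strand, so part of the Gata3 signal could belong to them, which was not tested. Pou5f1 was between 807 and 1092 FPKM in the same libraries.

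Eomes, a T-box factor of trophoblast and of the primitive streak, had the highest ratio of withdrawal to LIF among the members in both cell types. It stood at 0.423 and 0.691 FPKM in normal and labelled cells with LIF, 1.21 and 3.58 FPKM after withdrawal, and 1.4997 FPKM at 40 days. The labelled library was the higher in both cultures, and the withdrawal library was the higher in both cell types. The log2 ratio of labelled to normal cells was 0.25 with LIF and 1.05 after withdrawal, and that of withdrawal to LIF was 0.63 in normal and 1.44 in labelled cells. limma gave 1.03 ± 0.30 for culture (SE, adjusted p = 0.420) and 0.65 ± 0.30 for cell type (adjusted p = 0.562). The difference between the cell types in this response was not tested, since the fit uses it as its residual. The 5 genes closest in pattern were Fzd7, Ier5, Trim59, Igfbp2 and Arfgap2, at distances of 0.24 to 0.40 with a median gene at 1.45. Fzd7, a Wnt receptor, stood at 16.01, 20.7, 30.3, 53.0 and 33.7 FPKM in the order given above. Other markers of the primitive streak were low: T stayed at or under 0.242 FPKM and Mixl1 at or under 0.757 FPKM, and none of 8 such markers had a mean of 1 FPKM.

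Ascl2, an imprinted factor of the spongiotrophoblast, stood at 2.29 and 1.07 FPKM in normal and labelled cells with LIF, 3.78 and 2.996 FPKM after withdrawal and 1.78 FPKM at 40 days. Both withdrawal libraries were above the 3 others, and labelled cells with LIF were the lowest. The log2 ratio of withdrawal to LIF was 0.54 in normal and 0.95 in labelled cells. The second passed 2-fold at a smaller pseudocount (1.15 with 0.5 and 1.40 with 0.1), and the raw FPKM ratio was 2.79. limma gave 0.74 ± 0.20 for culture (SE, adjusted p = 0.413) and -0.46 ± 0.20 for cell type (adjusted p = 0.557). The 5 genes closest in pattern were Gm10324, Brat1, Kctd3, Galr2 and Dnajb2, at distances of 0.088 to 0.30 with a median gene at 1.12. Ascl2 maps to positions 150152727 to 150155169 of chromosome 7 in mm9, in an imprinted region that also holds Cdkn1c (150644255 to 150646955) and Phlda2 (150687450 to 150688446). All 3 are on the minus strand.

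These neighbours followed other courses. Cdkn1c, a cell cycle inhibitor needed in the placenta, stood at 10.6 and 8.11 FPKM with LIF, 39.0 and 30.7 FPKM after withdrawal and 69.2 FPKM at 40 days. Phlda2, which limits placental growth, stood at 58.7 and 43.5 FPKM with LIF, 35.8 and 26.2 FPKM after withdrawal and 52.8 FPKM at 40 days. Cdkn1c was thus higher after withdrawal as Ascl2 was, while Phlda2 was lower.

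Hand1, a factor of giant cells and of extraembryonic mesoderm, was low and highest at 40 days. It stood at 0.197 and 0.217 FPKM with LIF, 0.192 and 0.306 FPKM after withdrawal and 0.799 FPKM at 40 days. The last is about 56 fragments (Poisson 95% interval 42.3 to 72.7), above the intervals of the 4 other libraries, which reached 33.3 at most. This compares libraries at the counting error only and rests on the estimated depth. The raw FPKM ratio of 40 days to labelled cells with LIF was 3.68, and 1.48 on the FPKM + 1 scale, which understates changes at low levels.

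Around these members, most other genes of the trophoblast program were low. Of 20 genes of differentiated trophoblast, 5 reached a mean of 1 FPKM, and 6 to 10 were listed at 0 per library. Beside Cdkn1c and Phlda2 these were Peg10 (40.1 to 84.5 FPKM), Cited2 (35.0 to 56.6 FPKM) and Igf2, a fetal growth factor, which stood at 1.60 and 1.77 FPKM with LIF, 0.658 and 0.786 FPKM after withdrawal and 10.1 FPKM at 40 days. At 40 days against labelled cells with LIF, 3 of the 20 were at least 2-fold higher (Cdkn1c, Igf2 and Rhox6, the last named after its values were seen) and none lower. Over the 9590 genes with a mean of at least 1 FPKM, 14% were higher and 8.31% lower. Only 5 of the 20 had that mean, Cdkn1c and Igf2 among them and Rhox6 not, so the 2 shares are not like for like. Of 11 further genes linked to trophoblast progenitors, which embryonic stem cells also use, 7 reached the mean of 1 FPKM. Esrrb, a nuclear receptor of both stem cell types, stood at 157 and 139 FPKM with LIF, 55.0 and 40.3 FPKM after withdrawal and 29.0 FPKM at 40 days, and was the only one of the 11 at least 2-fold lower after withdrawal in either cell type. Of the other AP-2 genes, Tfap2a, Tfap2b, Tfap2d and Tfap2e stayed at or under 0.780 FPKM in all libraries.

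Krt8 followed Tfap2c in direction across the 4 libraries of the layout but not at 40 days. It stood at 11.2 and 6.20 FPKM in normal and labelled cells with LIF, 5.94 and 2.54 FPKM after withdrawal, and 21.6 FPKM at 40 days. The labelled library was the lower in both cultures, the withdrawal library was the lower in both cell types, and the 40 day library was the highest. The log2 ratio of labelled to normal cells was -0.76 with LIF and -0.97 after withdrawal, and that of withdrawal to LIF was -0.81 in normal and -1.02 in labelled cells. limma gave -0.87 ± 0.16 for cell type (SE, adjusted p = 0.512) and -0.92 ± 0.16 for culture (adjusted p = 0.345). The 5 genes closest in pattern were Cyb561, Anxa2, 4933402E13Rik, Hspb2 and Snhg12, at distances of 0.36 to 0.59 with a median gene at 2.04. Anxa2, a membrane-binding annexin, stood at 23.1, 14.3, 15.6, 7.76 and 36.2 FPKM in the order given above.

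Krt18 shared the difference between cell types with LIF, but not the lower level after withdrawal. It stood at 5.25 and 2.80 FPKM with LIF, 6.44 and 5.52 FPKM after withdrawal, and 54.2 FPKM at 40 days. The 40 day library was 19.3 times labelled cells with LIF in FPKM, or 3.86 on the log2(FPKM + 1) scale, and 3.08 above labelled cells after withdrawal on that scale. At 40 days Krt18 lay above 95.4% of all genes measured. The log2 ratio of withdrawal to LIF was 0.25 in normal and 0.78 in labelled cells, and limma gave 0.52 ± 0.22 for culture (SE, adjusted p = 0.495) and -0.45 ± 0.22 for cell type (adjusted p = 0.566). The 5 genes closest in pattern, Pmaip1, Kif1a, Lratd2, Retreg1 and Hs3st1, were at distances of 0.55 to 0.64 with a median gene at 2.99, and all were under 1.6 FPKM except at 40 days.

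The balance of the keratin partners differed between cultures. The genes lie 23873 bases apart on chromosome 15 of mm9, Krt8 at 101827142 to 101834773 (minus strand) and Krt18 at 101858647 to 101862457 (plus strand), with no annotated gene between them. Krt18 over Krt8, each in FPKM, was 0.468 in normal and 0.452 in labelled cells with LIF. It was 1.08 in normal and 2.17 in labelled cells after withdrawal, and 2.51 at 40 days. Krt8 was thus the more abundant partner in both libraries with LIF, and Krt18 in labelled cells after withdrawal and at 40 days. In normal cells after withdrawal the partners were nearly equal. Their estimated fragments there were 393 for Krt8 and 319 for Krt18, with Poisson intervals of 355 to 434 and 285 to 356. Counting error of this size leaves the order of the partners at a ratio of 1.08 undecided. The intervals rest on the estimated depth. The sources used here do not say how fragments that match several places were treated, so a share of either value could come from copies of these genes elsewhere.

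**Figure D3:**
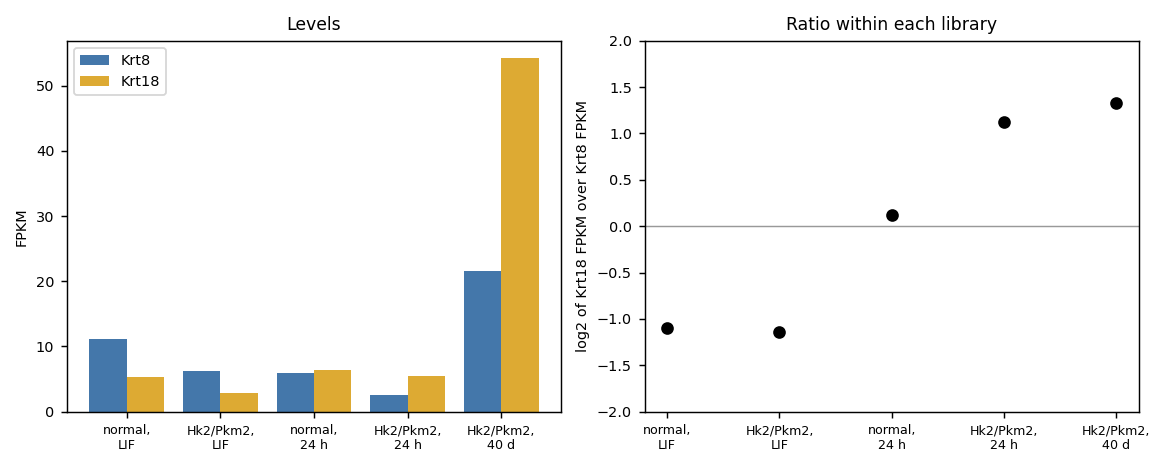
Left, FPKM of Krt8 and Krt18 in each library (1 library per bar); right, the log2 of Krt18 over Krt8 FPKM, where 0 is equal. The ratio of Krt18 to Krt8 is 0.468 and 0.452 with LIF, 1.08 and 2.17 after withdrawal and 2.51 at 40 days.

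Among the other keratins, Krt19 and Krt7, further simple epithelial keratins, were highest at 40 days as Krt8 and Krt18 were. Krt19 stood at 3.06 and 0.788 FPKM with LIF, 2.18 and 0.759 FPKM after withdrawal and 4.39 FPKM at 40 days. Krt7 stood at or under 0.219 FPKM in the first 4 libraries and at 1.67 FPKM at 40 days. Krt42, a type I keratin, ran the other way, at 27.2 FPKM in normal and 3.24 FPKM in labelled cells with LIF, 3.02 and 2.60 FPKM after withdrawal, and listed at 0 at 40 days. The stratified keratins Krt5 and Krt14 stayed at or under 0.438 FPKM, and of 9 other keratins with a usable value 2 reached a mean of 1 FPKM.

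Desmosomes anchor keratin filaments at cell contacts, and 11 of their genes and linkers were listed. At 40 days against labelled cells with LIF, 4 were at least 2-fold higher and none lower. The 4 were Dsp, Dsg2, Pkp3 and Dsc2, the last named after its values were seen. Over the 9590 genes with a mean of at least 1 FPKM, 14% were higher and 8.31% lower. Only 7 of the 11 had that mean, Dsp through its 40 day value and Dsc2 not among them, so the shares are not like for like. Pkp3 and Dsc2 were listed at 0 in labelled cells with LIF, and Pkp3 was lower at 40 days (2.05 FPKM) than in normal cells with LIF (2.84 FPKM). Dsp, the plakin that binds the filaments, stood at 0.784 and 0.375 FPKM with LIF, 0.283 and 0.338 FPKM after withdrawal and 3.57 FPKM at 40 days. Dsg2, a desmosomal cadherin, stood at 4.72 and 4.44 FPKM, then 4.11 and 2.38 FPKM, and 13.6 FPKM at 40 days. Jup, plakoglobin, ran the other way, from 23.6 FPKM in normal and 6.06 FPKM in labelled cells with LIF to 6.56, 5.62 and 3.73 FPKM in the others.

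Endoderm markers were high in the same 40 day library. Of 14 markers of primitive and visceral endoderm, 10 were at least 2-fold higher there than in labelled cells with LIF. The 1 that was lower, Sparc, was listed at 0 there and in normal cells with LIF. Over the 9590 genes with a mean of at least 1 FPKM, 14% were higher and 8.31% lower. Only 9 of the 14 markers had that mean, Dab2 and Cubn through the 40 day library, so the shares are not like for like. Gata4 stood at 1.19 FPKM in labelled cells with LIF and 25.6 FPKM at 40 days, Dab2 at 0.276 and 52.0 FPKM, and Cubn at 0.0896 and 40.1 FPKM. Lama1 alone stood at 17.4 and 23.9 FPKM with LIF, 2.52 and 0.436 FPKM after withdrawal and 77.3 FPKM at 40 days. Without Sparc, the markers summed to 24.8 and 33.9 FPKM with LIF, 7.69 and 6.75 FPKM after withdrawal and 365 FPKM at 40 days. Afp was listed at 0 in every library and Sox17 at 40 days, and Ttr was at 0.166 FPKM there. The part of endoderm-like cells in the keratin levels at 40 days was not tested, and in bulk RNA fewer cells of a type and less RNA per cell cannot be told apart.

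**Figure D4:**
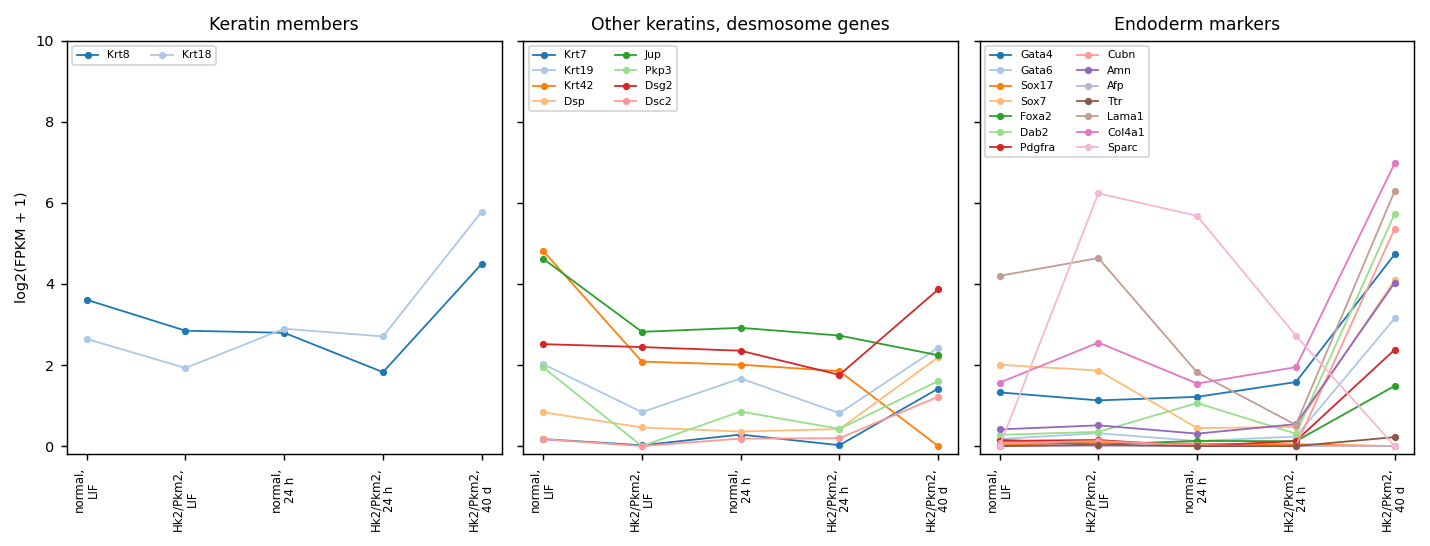
The log2(FPKM + 1) value of Krt8 and Krt18, of other keratins and desmosome genes, and of 14 endoderm markers in each of the 5 libraries; lines only join the points of a gene, and the vertical scale is shared. At 40 days Krt8 and Krt18 (21.6 and 54.2 FPKM), Dsp (3.57 FPKM), Gata4 (25.6 FPKM) and Dab2 (52.0 FPKM) are at their highest, while Krt42 and Sparc are listed at 0.

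Set against all genes, the members' counts in the comparisons between cell types were small. With LIF, Tfap2c was 1 member of 10 at least 2-fold lower in labelled cells and none was higher, where 5.32% of 9590 genes were lower and 4.11% higher. After withdrawal, Tfap2c was again lower and Eomes higher, against 5.18% lower and 4.19% higher over all genes. With LIF 7 of 10 members had a ratio below 0 and 2 above, with a median of -0.53 where all genes had -0.04. After withdrawal 7 were again below and 2 above, with a median of -0.23 where all genes had -0.02. The 4 members under 1 FPKM throughout can hardly reach 2-fold on this scale.

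For the 24 hour withdrawal, Tfap2c and Tead4 were at least 2-fold lower in normal cells and no member was higher, against 5.51% lower and 4.62% higher over all genes. In labelled cells Tfap2c, Tead4 and Krt8 were lower and Eomes higher, against 6.07% and 5.79%. The medians were 0.02 and 0.11, where the 9590 genes tested had -0.005 and 0.004. The member medians include the 4 members under 1 FPKM throughout, whose ratios this scale keeps small. Krt18, Ascl2 and Eomes were higher after withdrawal in both cell types, so that the low Tfap2c and Tead4 do not stand for the list.

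At 40 days against labelled cells with LIF, Krt8 and Krt18 were at least 2-fold higher and Tfap2c and Tead4 lower, where 14% of genes were higher and 8.31% lower. Against labelled cells after withdrawal, Krt8 and Krt18 were higher and no member was lower, where 12.1% and 5.78% of genes were. Eomes was at -0.87 in that comparison and passed 2-fold lower under 4 alternatives, at -1.20 and -1.03 with pseudocounts of 0.1 and 0.5, -1.26 after quantile normalization and -1.06 with the more abundant transcript alone. The medians were 0.49 and 0.35, where all genes had 0.08 and 0.07. Both comparisons share the 40 day library and the earlier ones share libraries with them, so their values are given side by side and are not independent.

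**Figure D5:**
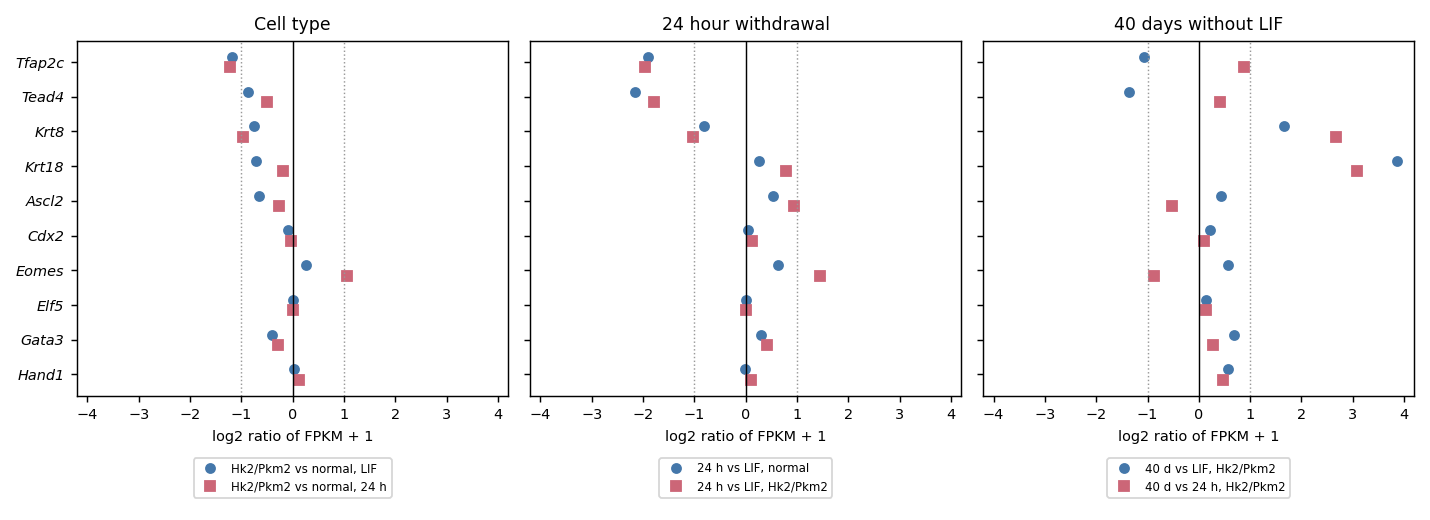
Points give the log2 ratio of FPKM + 1 for each member in the 6 comparisons (1 library against 1), with 0 as a solid line and 2-fold as dotted lines. Tfap2c lies left of -1 in both cell type comparisons (-1.17 and -1.22) and both withdrawal comparisons, and Krt18 lies farthest right at 40 days (3.86 and 3.08).

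At an adjusted p of 0.05 over the 9590 genes, limma called none for cell type (0%) and none for culture (0%), with 918 and 1154 at an unadjusted p under 0.05. With 1 residual degree of freedom these p-values measure agreement over 2 cultures or 2 cell types only, and they do not show that members did not differ.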

How the data were processed

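Messenger RNA of 5 libraries was sequenced after TruSeq preparation, a kit that does not mark strand, per the labels' protocols. The authors deposited FPKM per RefSeq transcript. TopHat2 2.0.7, Cufflinks 2.0.2 and build mm9 are named in the submitters' processing notes. FPKM is no count, so no count model was run.

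Transcripts (28698, of which 28066 matched) got symbols through their accessions from RefSeq (GRCm38.p6), and FPKM was summed per gene, suffixed copies included. A hyphen in a transcript removed 337 genes, no member among them. Ratios use log2(FPKM + 1). Counts over all genes use a mean of at least 1 FPKM. limma 3.58.1 (R 4.3.3; eBayes with trend, tested on simulated data) was fitted to 4 libraries with cell type and culture as factors, with Benjamini-Hochberg adjustment; the 40 day library has no normal partner and stayed out. Coordinates are from GENCODE vM1 on NCBIM37 (mm9), where Tfap2c has the older symbol Tcfap2c.

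Depth was estimated from the spacing of low values in genes with 1 transcript, a weak signal. The Poisson intervals cover counting error only.

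Members and lists were chosen with earlier results of these data known. Named genes are all members, the 5 closest to each in pattern, partners of members, and up to 4 genes per list with the widest range.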

Additional observations from a re-analysis of the deposited data

Results flagged for a closer look

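Hand1 was the member whose difference between the 24 hour withdrawal and LIF had opposite signs in the cell types, at -0.00635 on the log2(FPKM + 1) scale in normal cells and 0.10 in Hk2/Pkm2-labelled cells. The difference was not tested, each value rests on 2 libraries, and the Poisson 95% intervals of the estimated fragments in these 4 libraries overlapped. No group has the 4 samples that a search for outlying samples needs.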

How the results depend on the processing

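No paired analysis was possible because each group holds 1 library, so that no replicate numbers pair samples across groups (culture and cell type are both terms of the limma fit), and for the same reason no library could be left out. The counts of members at least 2-fold different stayed within 1.5 times the reported ones under size factors, quantile normalization, exclusion of suffixed copies and restriction to members with a mean of at least 1 FPKM. With a pseudocount of 0.1 they were 3 in place of 1 for cell type with LIF, 7 in place of 4 for 40 days against LIF and 5 in place of 2 for 40 days against 24 hours. With a pseudocount of 0.5 the last was 4. With only the transcript of the higher mean over the libraries, the count for cell type after withdrawal was 1 in place of 2. A smaller pseudocount by construction gives more weight to low genes such as Gata3 and Hand1. limma called 0 genes under all 7 alternatives for both effects, and no estimate changed sign for the 6 members in the main fit. Cdx2, Elf5, Gata3 and Hand1 were fitted only without the filter on low values, so their signs could not be compared. No 2-fold ratio of a member changed sign under the alternatives run. Depth limits Cdx2, Elf5, Gata3 and Hand1 most, and a value listed at 0 (Gata3 in labelled cells with LIF, single transcripts of Tead4) cannot be told from a failed estimate.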

Other observations

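Among markers of surface epithelium, where trophoblast factors such as Gata3 and Tfap2c are also used, Grhl2, a grainyhead factor of epithelial barriers, stood at 3.32 and 1.80 FPKM in normal and Hk2/Pkm2-labelled cells with LIF, 16.5 and 21.7 FPKM after the 24 hour withdrawal and 10.01 FPKM at 40 days. Both withdrawal libraries were the highest. Its relative Grhl3 stood at 5.24 and 3.94 FPKM, then 4.38 and 1.61 FPKM, and 0.968 FPKM at 40 days. Cdh3, P-cadherin, stood at 3.61 and 3.11 FPKM with LIF, 8.02 and 9.55 FPKM after withdrawal and 5.69 FPKM at 40 days. Trp63, which defines stratified epithelium, stayed at or under 0.030 FPKM, and of the 6 markers of this list 3 reached a mean of 1 FPKM.

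Fibroblast and feeder markers gave no common course. Col1a1, Col1a2, Col3a1, Postn and Lum stayed at or under 0.195 FPKM in every library, Vim ranged from 32.0 to 144 FPKM and Lgals1 from 27.3 to 77.8 FPKM. Thy1 stood at 0.792 and 2.54 FPKM in normal and labelled cells with LIF, 1.27 and 4.32 FPKM after withdrawal and 4.26 FPKM at 40 days.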
